A study of Mus musculus with 12 samples.

Results

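Transcripts of 10 antioxidant enzymes were followed in C57BL/6 mouse kidney with QuantSeq, which reads polyadenylated RNA from its 3′ end. The enzymes were taken by gene symbol: the superoxide dismutases Sod1, Sod2 and Sod3, the glutathione peroxidases Gpx1, Gpx3 and Gpx4, the peroxiredoxin Prdx1, the thioredoxin reductase Txnrd1, and the inducible enzymes Nqo1 and Hmox1. All 10 were among the 23238 gene symbols measured, and all 10 passed the filter on low values that left 13943 genes for testing. The libraries fell into 3 groups of 4, all of the C57BL/6 strain: kidneys of mice with chronic kidney disease (CKD) under time-restricted feeding (TRF), kidneys of mice with CKD, and Control kidneys. How CKD was produced, the feeding hours, the hour of sampling, age and sex are not given in the sources used here. The labels do not say that each library came from a separate mouse, so p-values measure the spread between libraries, which may in part be technical.

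Antioxidant enzymes work in a relay. Superoxide dismutases turn superoxide into hydrogen peroxide, in the cytosol (Sod1), in mitochondria (Sod2) and outside the cell (Sod3). Glutathione peroxidases and peroxiredoxins then reduce peroxides, drawing electrons from glutathione and from thioredoxin, and thioredoxin reductase recharges thioredoxin. Nqo1 reduces quinones and Hmox1 breaks down heme, and both are textbook targets of the transcription factor NRF2, which is held down by Keap1. In kidney, the proximal tubule is rich in mitochondria and is known as the main source of the plasma glutathione peroxidase encoded by Gpx3.

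Gpx1, Gpx3, Gpx4 and Txnrd1 encode selenoproteins, in which an in-frame TGA, elsewhere a stop codon, is read as selenocysteine. The codon and 15 bases on either side are shown because this residue sits in the active site of all 4 enzymes and sets them apart from the other 6. They were read from GENCODE M21 transcripts on the GRCm38 (mm10) assembly, with the selenocysteine codon in capitals.
Gpx1: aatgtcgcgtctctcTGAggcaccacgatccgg
Gpx3: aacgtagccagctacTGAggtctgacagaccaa
Gpx4: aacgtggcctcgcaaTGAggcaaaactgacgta
Txnrd1: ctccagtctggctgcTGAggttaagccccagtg
The codon lies on the plus strand in each gene, at chr9:108339451-108339453 as codon 47 of Gpx1, at chr11:54907256-54907258 as codon 73 of Gpx3, at chr10:80054737-80054739 in Gpx4 and at chr10:82896037-82896039 as codon 498 of Txnrd1.

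Promoter windows, from 250 bases before to 50 bases after the annotated start, were found in RefSeq (GRCm38.p6) for 8 of the 10 genes, all but Sod3 and Hmox1, as 13 windows because some genes have several starts. The antioxidant response element, the site NRF2 is known to bind, was searched for as TGACNNNGC on both strands. It matched in 3 of the 13 windows, belonging to Sod1, Prdx1 and Txnrd1, against 12.4% of 32851 promoter windows of the same length. The windows of Sod2, Gpx1, Gpx3, Gpx4 and Nqo1 did not hold these letters. Sequence outside the windows was not searched, so sites further from the start are not covered. The 3 windows are shown, on the strand of the gene, because they let the letters be set beside the transcript values. The match is in capitals and reads on the opposite strand.
Sod1: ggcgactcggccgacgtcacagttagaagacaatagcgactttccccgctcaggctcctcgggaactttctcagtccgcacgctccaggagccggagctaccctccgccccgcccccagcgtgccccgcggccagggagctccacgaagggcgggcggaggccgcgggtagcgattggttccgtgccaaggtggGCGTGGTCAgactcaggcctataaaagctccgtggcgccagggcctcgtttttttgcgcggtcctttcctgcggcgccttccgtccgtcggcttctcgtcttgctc
Prdx1: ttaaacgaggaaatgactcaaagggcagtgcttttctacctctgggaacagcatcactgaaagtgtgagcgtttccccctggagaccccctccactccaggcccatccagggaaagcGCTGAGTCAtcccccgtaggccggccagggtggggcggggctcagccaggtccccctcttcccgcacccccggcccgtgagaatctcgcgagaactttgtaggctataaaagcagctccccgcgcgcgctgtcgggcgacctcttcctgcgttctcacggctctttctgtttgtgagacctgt
Txnrd1: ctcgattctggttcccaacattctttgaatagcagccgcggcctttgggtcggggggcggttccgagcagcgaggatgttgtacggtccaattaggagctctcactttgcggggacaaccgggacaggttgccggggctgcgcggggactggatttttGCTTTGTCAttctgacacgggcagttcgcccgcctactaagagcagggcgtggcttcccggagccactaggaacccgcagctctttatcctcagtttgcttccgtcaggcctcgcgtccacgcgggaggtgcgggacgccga
The windows are chr16:90220512-90220811 for Sod1, chr4:116685349-116685648 for Prdx1 and chr10:82858956-82859255 for Txnrd1, all on the plus strand. The match starts at position -56 from the start in Sod1, -133 in Prdx1 and -92 in Txnrd1. In Prdx1 it overlaps a match to the AP-1 letters TGANTCA, which occur in 7.81% of all windows. Of the 3 genes, Sod1 and Prdx1 fell in CKD and Txnrd1 did not pass the test, as given below. A match of letters is a description and no evidence of binding.

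The deposited values are log2 of scaled reads plus 1, and levels are given here as scaled reads, which in 3′ counting are not divided by transcript length because reads come from transcript ends. The steps between low values gave back the reads behind each library: 14141086 to 17204408 in CKD TRF, 14508068 to 16852461 in CKD and 10985654 to 12806472 in Control. The scaled reads did not add to a common total, with sums of 987502 to 1025504 in CKD TRF, 940904 to 978104 in CKD and 1076402 to 1179702 in Control, and other scalings are therefore given for the enzymes. Marker lists for kidney cell types moved between the groups. Of 12 proximal tubule markers, 8 were called lower in CKD than in Control in limma, at an adjusted p of 0.05. Lrp2 (-0.31), Cubn (-0.31), Slc34a1 (-0.29) and Slc5a12 (-0.29) also had log2 differences below 0 but were not called. The 12 markers summed to 9346 to 10865 scaled reads in CKD TRF, 8203 to 9293 in CKD and 11059 to 13167 in Control. All 9 tested macrophage markers were higher, with sums of 424 to 495 in CKD TRF, 434 to 573 in CKD and 141 to 165 in Control. Fibroblast markers (5 of 5), vascular smooth muscle markers (4 of 4), urothelium markers (6 of 6) and distal nephron markers (5 of 5) were higher in CKD as well. Fibroblast markers summed to 661 to 788 in CKD TRF, 814 to 907 in CKD and 143 to 166 in Control. Adipose markers summed to at most 1.29 in the Control libraries but reached 386 in CKD 4 and 169 in CKD 2, and 131, 81.4 and 66.5 in CKD TRF 4, 1 and 3. In whole-kidney RNA, fewer cells of a type and less RNA per cell cannot be told apart, and the part of these markers in the results below was not tested.

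The comparison of CKD with Control kidneys asks how transcripts of these enzymes stand in the diseased organ. Of the 10 enzymes, 7 fell and 1 rose in CKD. All 3 superoxide dismutases, all 3 glutathione peroxidases and Prdx1 fell, Hmox1 rose, and Nqo1 and Txnrd1 did not pass the test, all in the deposited scaling; with equal library sums 3 of the 7 falls passed, and Txnrd1 was called higher. In limma, at a Benjamini-Hochberg adjusted p of 0.05 taken over all 13943 tests, 45.4% of all tested genes were called, 21.8% lower and 23.6% higher. The 10 enzymes had a median log2 difference of -0.49, against 0.02 for all tested genes. The 4 CKD values lay below the 4 Control values, with no overlap, for Sod1, Sod2, Gpx1, Gpx3 and Prdx1, and above them for Hmox1. Among all tested genes 39.5% did not overlap, 19.2% lower and 20.3% higher.

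**Figure D1:**
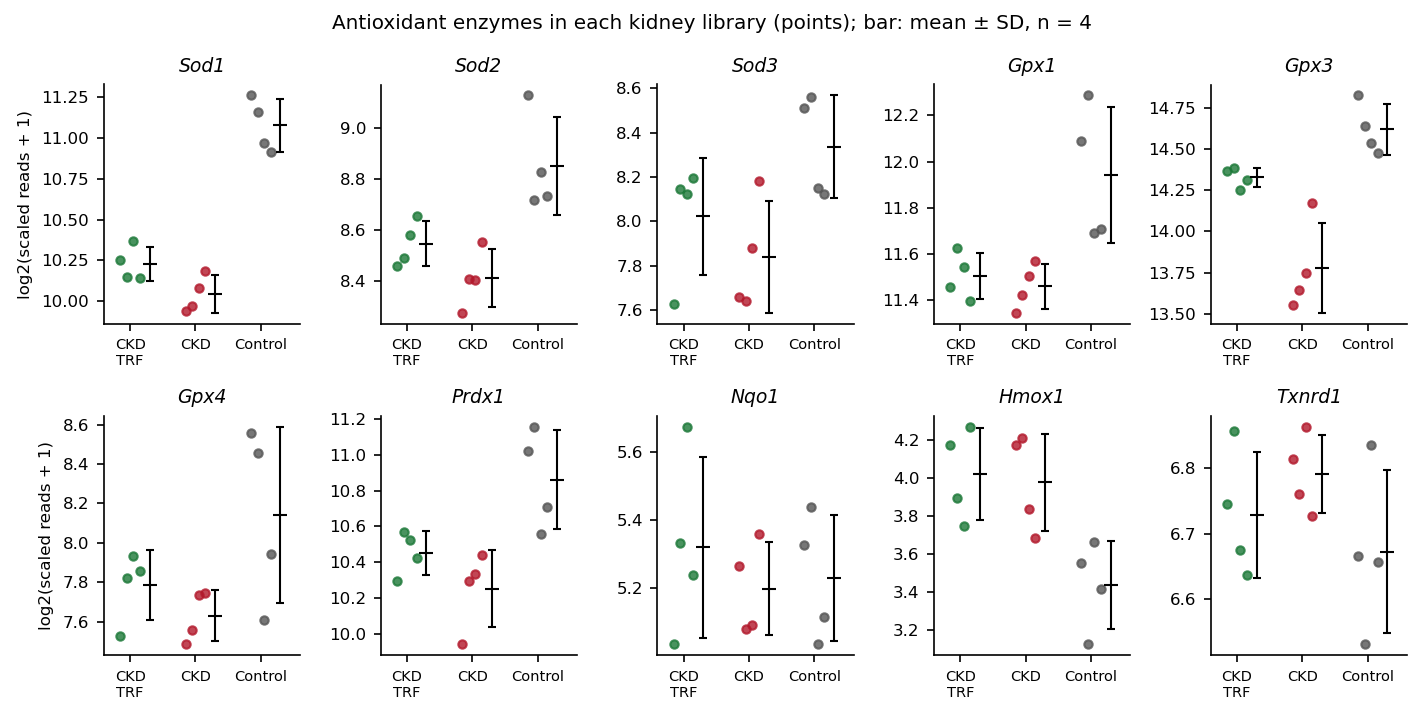
Log2(scaled reads + 1) of the 10 antioxidant enzymes, 1 panel per gene with its own vertical axis, with CKD TRF, CKD and Control from left to right; each point is 1 library and the bars are the mean ± SD of 4 libraries. Sod1 lies between 9.94 and 10.37 in the 8 CKD TRF and CKD libraries and between 10.92 and 11.26 in the 4 Control libraries.

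Sod1, the copper-zinc dismutase of the cytosol (chr16:90220754-90226329, plus strand), showed the widest gap of the 10. It had 1220.1, 1133, 1321 and 1131 scaled reads in CKD TRF libraries 1 to 4, 981, 1001, 1084 and 1166 in CKD libraries 1 to 4, and 2451, 2287, 2005 and 1931 in Control libraries 1 to 4. Every diseased library lay below every Control library. Sod1 fell by 1.03 on the log2 scale in CKD (SE 0.11, 95% interval -1.26 to -0.80, limma adjusted p = 3.6e-07). On the linear scale it fell by 51.1% relative to Control. The call held under all 23 alternatives, with values of -1.14 to -0.62. The 3′ end of Sod1 overlaps the end of Scaf4 on the opposite strand, and the strand setting of the authors' counting is not given in the sources used here. Scaf4 had 26.8 ± 3.98 scaled reads in CKD TRF, 30.6 ± 1.87 in CKD and 27.7 ± 3.68 in Control (SD, n = 4 each). The part of the overlap in the Sod1 values was not tested.

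Sod2, the manganese dismutase of mitochondria (chr17:13006846-13040063, plus strand), had 351, 359, 382 and 402 scaled reads in CKD TRF, 309, 339, 338 and 375 in CKD, and 558, 420.1, 453 and 424 in Control. The highest CKD library lay below the lowest Control library, and Control 1 stood above the other Control libraries. Sod2 fell by 0.44 on the log2 scale in CKD (SE 0.10, limma adjusted p = 0.00157). Sod3, the dismutase secreted into the extracellular space (chr5:52363791-52371418, plus strand), had 197, 282, 278 and 292 scaled reads in CKD TRF, 201, 198, 235 and 289.6 in CKD, and 365, 376, 283 and 278 in Control. The ranges of CKD and Control overlapped, through CKD 4 and through Control 3 and 4. Sod3 fell by 0.50 on the log2 scale (SE 0.14, limma adjusted p = 0.00723). With libraries scaled to equal sums, Sod2 was at -0.21 and Sod3 at -0.27 in limma, with adjusted p of 0.107 and 0.113, and neither passed.

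Partners of the dismutases were read beside them. Ccs, the copper chaperone that loads Sod1, had 76.1 ± 2.75 scaled reads in CKD TRF, 74.2 ± 6.99 in CKD and 111 ± 14.7 in Control (SD, n = 4 each) and fell by 0.56 on the log2 scale in CKD (SE 0.11, limma adjusted p = 2.6e-04). Cat, the catalase that splits the hydrogen peroxide dismutases produce, had a log2 difference of -0.23 (SE 0.10, limma adjusted p = 0.0649) and did not pass. It was called lower with median centring (-0.34, limma adjusted p = 0.00978), without Control 4 (-0.28, limma adjusted p = 0.0460) and without CKD 1 (-0.30, limma adjusted p = 0.0275), and quantile normalization turned its sign (0.11, limma adjusted p = 0.312).

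Gpx3 (chr11:54902453-54910377, plus strand) was the most abundant of the 10 and ranked 3 among all genes in every library. It had 21144, 21349.8, 19496 and 20338 scaled reads in CKD TRF, 12034, 12809, 13729 and 18432 in CKD, and 29044, 25531, 23722 and 22787 in Control. The 3 groups formed separate ranges, with CKD lowest, CKD TRF between, and Control highest. Gpx3 fell by 0.84 on the log2 scale in CKD (SE 0.20, 95% interval -1.26 to -0.42, limma adjusted p = 0.00217). On the linear scale it fell by 44.1% relative to Control. Gpx3 alone took 1.90% to 2.10% of all reads in CKD TRF, 1.28% to 1.92% in CKD and 2.07% to 2.59% in Control. CKD 4, the CKD library with the most Gpx3, also had the highest adipose marker sum, while CKD TRF 2 had a sum of 0.398 and the most Gpx3 of its group. Without the 5 diseased libraries over 50 scaled reads of adipose markers, Gpx3 stood at -0.97 in CKD against Control (limma adjusted p = 0.0331). Quantile normalization gives the gene of each rank 1 value, so for a gene of the same rank in every library the difference is 0 by construction. With every gene above 0 tested, the value of -0.84 had a limma adjusted p of 0.143.

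Gpx1, the cytosolic glutathione peroxidase (chr9:108338903-108340343, plus strand), had 2814, 3162, 2985 and 2699 scaled reads in CKD TRF, 2604, 2747, 2903 and 3037 in CKD, and 4356, 4997, 3305 and 3342 in Control. All 8 diseased libraries lay below all 4 Control libraries, but Control 3 and 4 came near to them. Gpx1 fell by 0.48 on the log2 scale in CKD (SE 0.14, limma adjusted p = 0.00813). Gpx4, the enzyme that reduces lipid peroxides within membranes (chr10:80047166-80056439, plus strand), had 184, 225, 244 and 231 scaled reads in CKD TRF, 178, 187, 212 and 213 in CKD, and 376, 350.4, 194 and 245 in Control. Control 3 fell within the range of the CKD libraries. Gpx4 fell by 0.51 on the log2 scale in CKD (SE 0.16, limma adjusted p = 0.0113), and without Control 1 it was at -0.37 with an adjusted p of 0.0545. With equal sums Gpx1 was at -0.25 and Gpx4 at -0.28 in limma, with adjusted p of 0.107 and 0.120. With an adipose marker covariate Gpx1 was at -0.47 and Gpx4 at -0.53, with limma adjusted p of 0.0567 and 0.0528. Neither passed in these 2 settings. Gpx4 has an annotated processed pseudogene, Gpx4-ps2, which was not analysed here and whose reads the authors' alignment could share with Gpx4. Control 1 and 2 both stood above Control 3 and 4 in Sod1, Sod3, Gpx1, Gpx3, Gpx4, Prdx1 and Nqo1. How many of all tested genes split in this way was not counted, so the split is not a trait of these enzymes.

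Sepp1, the files' symbol for the selenium carrier selenoprotein P, which feeds selenium to kidney, fell by 0.60 on the log2 scale in CKD (SE 0.14, limma adjusted p = 0.00128). It had 2381 ± 280.3 scaled reads in CKD TRF, 2065 ± 343 in CKD and 3115 ± 296 in Control (SD, n = 4 each). With quantile normalization it was at -0.15 with a limma adjusted p of 0.242. Of the 9 tested genes that supply selenoprotein synthesis, 5 fell and 1 rose in CKD, beside 21.8% lower and 23.6% higher among all tested genes. That list was written with earlier results of these data known. Eefsec, the elongation factor that carries selenocysteine to the ribosome, fell by 0.85 on the log2 scale (SE 0.16, limma adjusted p = 2.4e-04). Secisbp2, the protein that binds the selenocysteine insertion element, rose by 0.46 (SE 0.15, limma adjusted p = 0.0178), but did not pass with median centring (0.35, limma adjusted p = 0.0570), without Control 2 (0.33, limma adjusted p = 0.0664) or without CKD 1 (0.41, limma adjusted p = 0.0569).

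Prdx1, a thioredoxin-dependent peroxidase of the cytosol (chr4:116685544-116700822, plus strand), had 1254, 1519, 1469 and 1371 scaled reads in CKD TRF, 983, 1254, 1292 and 1387 in CKD, and 2076, 2281, 1504 and 1671 in Control. The CKD libraries lay below the Control libraries, by the least between CKD 4 and Control 3. Prdx1 fell by 0.61 on the log2 scale in CKD (SE 0.14, limma adjusted p = 0.00124), and quantile normalization gave -0.17 with an adjusted p of 0.242. Srxn1, which repairs over-oxidised peroxiredoxins, had 75.9 ± 5.25 scaled reads in CKD TRF, 62.8 ± 9.88 in CKD and 95.05 ± 10.4 in Control and fell by 0.60 on the log2 scale (SE 0.11, limma adjusted p = 3.0e-04).

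Txnrd1, the cytosolic thioredoxin reductase (chr10:82833951-82897712, plus strand), kept a narrow range. It had 106, 115, 101 and 98.5 scaled reads in CKD TRF, 112, 107, 115 and 105 in CKD, and 101, 91.5, 113 and 99.9 in Control, and the groups overlapped. Its log2 difference in CKD was 0.12 (SE 0.09, 95% interval -0.07 to 0.31, limma adjusted p = 0.313). The call depended on scaling, since equal sums gave 0.35 (limma adjusted p = 0.00794) and quantile normalization 0.27 (limma adjusted p = 0.0195). Its substrate Txn1 had 381 ± 18.3 scaled reads in CKD TRF, 382 ± 32.6 in CKD and 635 ± 107 in Control (SD, n = 4 each) and fell by 0.72 on the log2 scale in CKD (SE 0.11, limma adjusted p = 2.1e-05). Txnip, the protein that binds and blocks thioredoxin, had 472 ± 83.6 scaled reads in CKD TRF, 544 ± 57.2 in CKD and 292 ± 63.9 in Control, and rose by 0.92 (SE 0.15, limma adjusted p = 4.8e-05).

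Hmox1, the inducible heme oxygenase (chr8:75093621-75100589, plus strand), was the only one of the 10 to rise in the deposited scaling. It had 17.1, 13.9, 12.5 and 18.3 scaled reads in CKD TRF, 17.1, 17.5, 13.3 and 11.9 in CKD, and 10.7, 7.74, 11.6 and 9.68 in Control. The lowest CKD library, at 11.9, stood just above the highest Control library, at 11.6. These levels rest on 209 to 278 reads in CKD TRF, 181 to 312 in CKD and 84 to 137 in Control, the fewest of the 10 enzymes. Hmox1 rose by 0.54 on the log2 scale in CKD (SE 0.17, 95% interval 0.17 to 0.90, limma adjusted p = 0.0162). That is 45.1% more than in Control for scaled reads plus 1, where the added 1 understates the change of a low gene. Mean scaled reads were 14.9 in CKD and 9.95 in Control. In limma the adjusted p was 0.0522 without Control 2, 0.0552 without CKD 1 and 0.0615 without CKD 2, with log2 differences of 0.43, 0.47 and 0.46. It was 0.0864 with quantile normalization, 0.0904 with an adipose marker covariate and 0.0756 without the diseased libraries over 50 scaled reads of adipose markers, with log2 differences of 0.38, 0.52 and 0.57. Macrophages are known to express Hmox1 as they take up red cells, and all 9 tested macrophage markers were higher in CKD, in sums given above, while all 5 red blood cell markers were lower. Their part in the rise of Hmox1 was not tested.

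Hmox2, the constitutive heme oxygenase, moved the other way. It had 75.7 ± 3.67 scaled reads in CKD TRF, 75.1 ± 3.63 in CKD and 114 ± 18.6 in Control (SD, n = 4 each) and fell by 0.59 on the log2 scale in CKD (SE 0.11, limma adjusted p = 1.8e-04). Blvra, the biliverdin reductase of the next step, had 65.4 ± 10.2 scaled reads in CKD TRF, 59.1 ± 7.26 in CKD and 116 ± 8.56 in Control and fell by 0.97 (SE 0.12, limma adjusted p = 2.3e-06).

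Nqo1, the quinone reductase (chr8:107388225-107403206, minus strand), had 31.8, 39.3, 50.02 and 36.7 scaled reads in CKD TRF, 37.5, 32.8, 33.1 and 40.01 in CKD, and 39.1, 42.4, 31.8 and 33.7 in Control. The ranges overlapped throughout. Its log2 difference in CKD was -0.03 (SE 0.14, 95% interval -0.31 to 0.25, limma adjusted p = 0.877), and the sign depended on the scaling, at 0.19 with equal sums. Nfe2l2, the gene of NRF2, had 128 ± 17.2 scaled reads in CKD TRF, 145 ± 11.7 in CKD and 99.9 ± 11.5 in Control, and rose by 0.53 on the log2 scale in CKD (SE 0.11, limma adjusted p = 5.6e-04). Keap1, which marks NRF2 for degradation, had a log2 difference of -0.09 (SE 0.09, limma adjusted p = 0.442). Bach1, which represses Hmox1, rose by 0.57 on the log2 scale (SE 0.16, limma adjusted p = 0.00559).

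**Figure D2:**
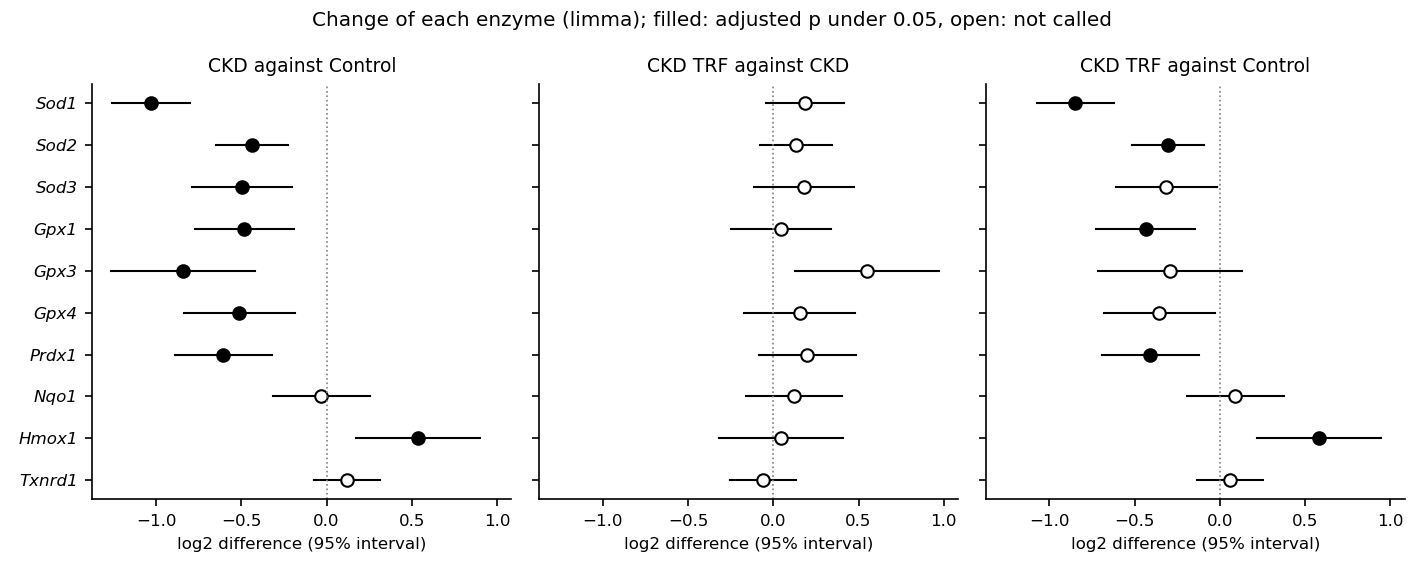
Log2 difference with 95% interval for the 10 antioxidant enzymes on the horizontal axis, with the left panel for CKD set against Control, the middle panel for CKD TRF set against CKD and the right panel for CKD TRF set against Control; filled points passed an adjusted p of 0.05. Sod1 lies at -1.03 in CKD against Control, Hmox1 lies above 0 in both comparisons with Control, and no point is filled in CKD TRF against CKD.

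The counts in CKD against Control are set beside level here, and the part of level in them was not tested. Of the 10 enzymes, 7 lay in the highest decile of the tested genes by mean level, the exceptions being Nqo1, Hmox1 and Txnrd1. In that decile of 1395 genes, 53.3% were called lower and 12.2% were called higher in CKD than in Control, with a median log2 difference of -0.30. The 7 enzymes that fell in CKD are the same 7. Set against all 13943 tested genes, the log2 difference of Sod1 was at percentile 2.00, that of Gpx3 at 4.19 and that of Prdx1 at 10.005.

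**Figure D3:**
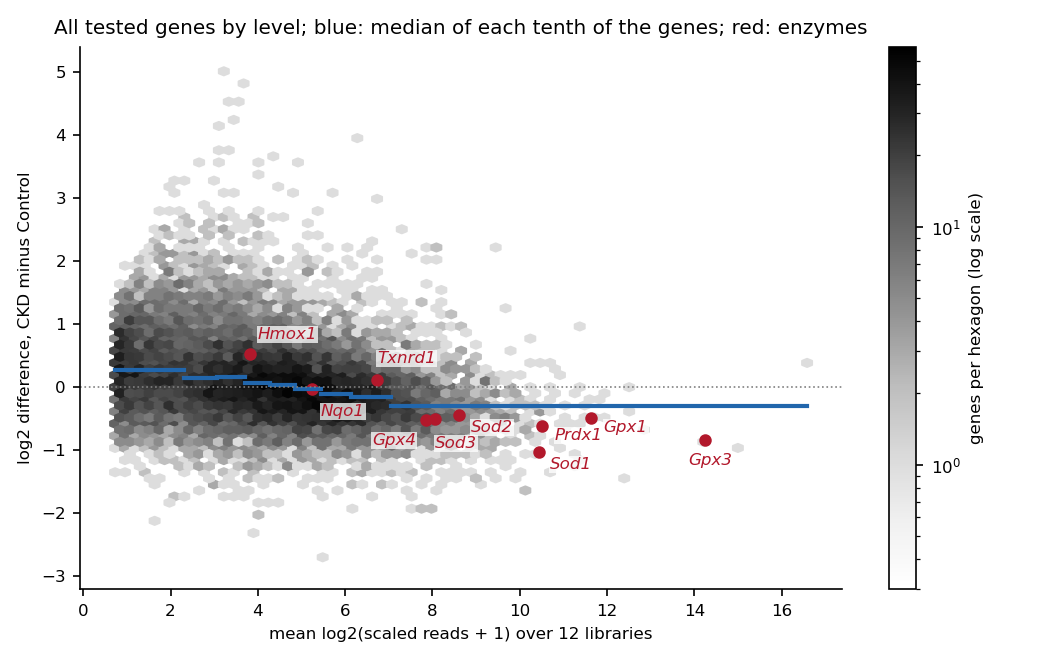
Log2 difference in CKD against Control on the vertical axis over mean log2 level on the horizontal axis for all tested genes, with the shade giving genes per hexagon, the 10 antioxidant enzymes named in red and a blue line for the median of each decile of level. The median falls to -0.30 in the highest decile, and Sod1 and Gpx3 lie below it.

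Scaling moved the count of enzymes called. In CKD against Control, equal sums left 5 of the 10 called in limma, with Sod1, Gpx3 and Prdx1 lower and Hmox1 and Txnrd1 higher, and shifted the median of all tested genes to 0.23. The voom model on the recovered reads called 5 in the same directions, with a median of 0.25. Quantile normalization called 2, Sod1 lower and Txnrd1 higher. Median centring called 8, with 7 lower and 1 higher, and shifted the median to -0.08. Over all tested genes the split was 4989 higher and 1547 lower with equal sums, against 3297 higher and 3036 lower as deposited, and 4747 and 1517 with voom. Sod1 was lower in CKD under each of these scalings.

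**Figure D4:**
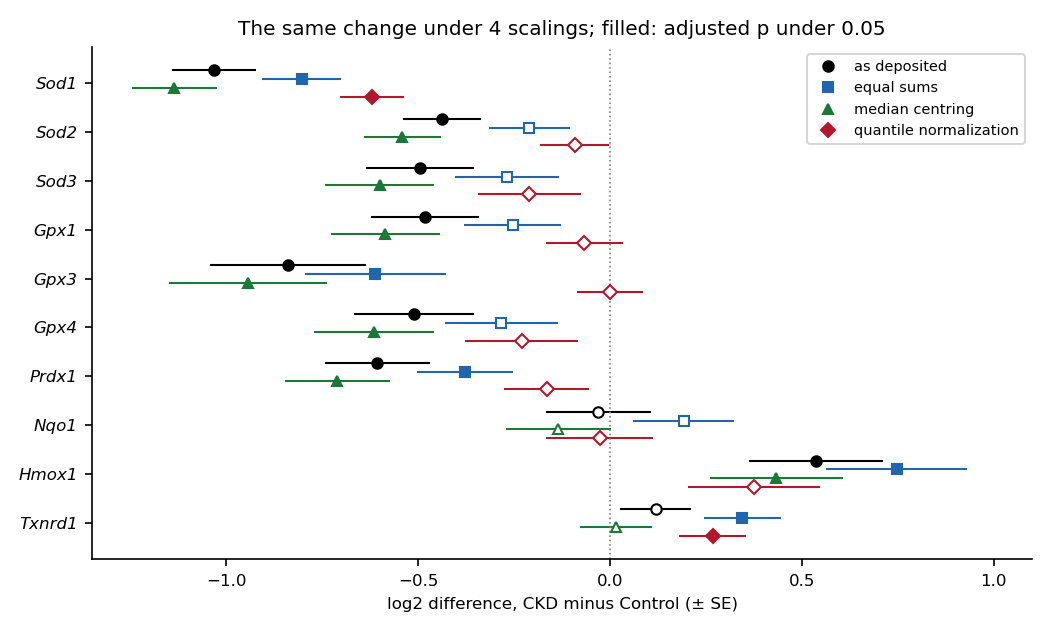
Log2 difference of the 10 antioxidant enzymes in CKD against Control on the horizontal axis, as deposited, with equal sums, with median centring and with quantile normalization; bars are ± SE and filled points passed an adjusted p of 0.05. Sod1 lies between -1.14 and -0.62 under all 4, Nqo1 changes sign, and Gpx3 is at 0 under quantile normalization.

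A factor applied to a whole library hardly alters the difference between enzymes within it. Log2 Sod1 minus log2 Sod2 was 1.49 to 1.79 in CKD TRF, 1.56 to 1.68 in CKD and 2.13 to 2.44 in Control, with no overlap between the diseased and the Control libraries. Log2 Hmox1 minus log2 Hmox2 was -2.58 to -1.99 in CKD TRF, -2.55 to -2.02 in CKD and -3.53 to -3.199 in Control, again apart. Log2 Txnrd1 minus log2 Txn1 was -2.03 to -1.66 in CKD TRF, -1.88 to -1.66 in CKD and -2.96 to -2.28 in Control, so reductase transcripts stood higher relative to thioredoxin in both diseased groups. Log2 Gpx3 minus log2 Gpx1 was 2.71 to 2.91 in CKD TRF, 2.21 to 2.601 in CKD and 2.35 to 2.84 in Control, where CKD and CKD TRF did not overlap. Against the mean of the 12 proximal tubule markers, log2 Gpx3 was 5.58 to 5.71 higher in CKD TRF, 5.11 to 5.56 higher in CKD and 5.26 to 5.68 higher in Control. Sod1 was 1.395 to 1.75 higher than that mean in CKD TRF, 1.49 to 1.58 in CKD and 1.70 to 2.20 in Control. These differences are descriptions, with no test.

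**Figure D5:**
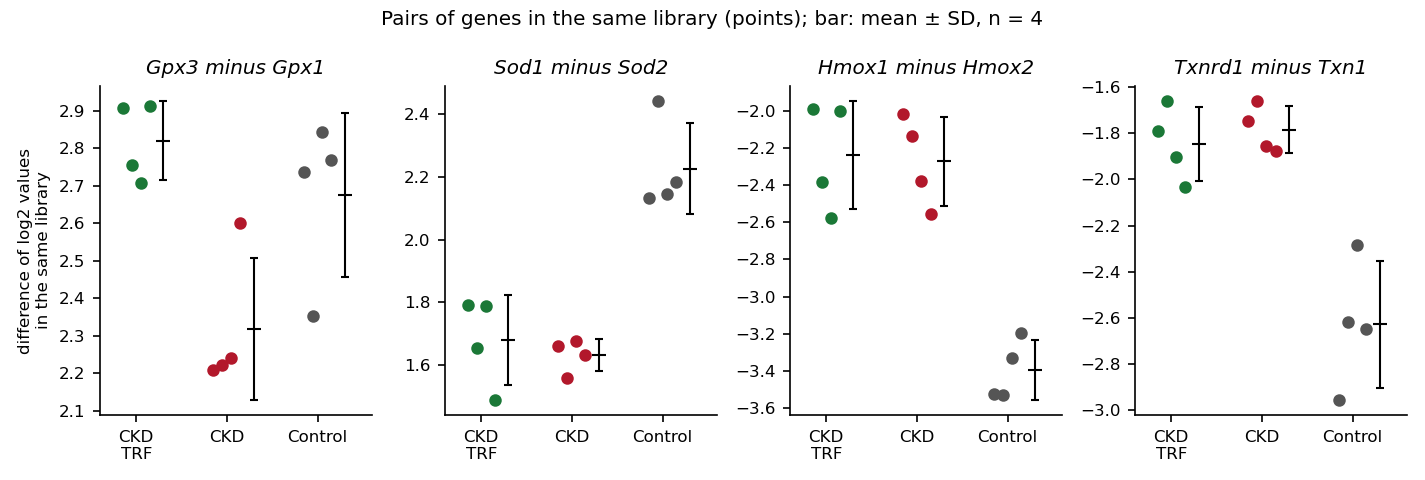
Differences in log2 level within each library for Gpx3 minus Gpx1, Sod1 minus Sod2, Hmox1 minus Hmox2 and Txnrd1 minus Txn1, with CKD TRF, CKD and Control from left to right, 1 point per library and bars for the mean ± SD of 4. For Sod1 minus Sod2 the Control libraries start at 2.13, above the highest diseased library at 1.79.

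The comparison of CKD TRF with CKD asks whether time-restricted feeding went with another level of these transcripts in diseased kidneys. None of the 10 enzymes was called, and none of the 13943 tested genes was called by limma (0%), with a lowest adjusted p of 0.705, and none by voom. At an unadjusted p under 0.05, 890 tested genes (6.38%) and 1 enzyme, Gpx3, stood out. The log2 difference was above 0 for 9 of the 10, with a median of 0.15, against -0.01 for all tested genes and 0.06 in the highest decile by level. In that decile only 31.9% of the genes lay below 0. With equal sums Gpx1 (-0.035) and Hmox1 (-0.031) also lay below 0. Only Gpx3 did not overlap between the groups, and it was higher in CKD TRF, while 4.5% of all tested genes did not overlap and 2.37% were higher in that way.

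Gpx3 was higher in CKD TRF by 0.55 on the log2 scale (SE 0.20, 95% interval 0.13 to 0.97). Its limma p was 0.0134 before adjustment and 0.705 after it. Gpx3 was singled out after its values were seen. The difference was at percentile 99.1 of all tested genes, and leaving out 1 library gave 0.47 to 0.68. As shares of reads, CKD TRF at 1.90% to 2.10% and CKD at 1.28% to 1.92% overlapped slightly, through CKD 4. For the other enzymes the 95% intervals, which show the sizes these libraries leave possible, ran from -0.04 to 0.41 for Sod1, from -0.08 to 0.35 for Sod2 and from -0.25 to 0.34 for Gpx1. They ran from -0.32 to 0.41 for Hmox1, from -0.16 to 0.41 for Nqo1 and from -0.26 to 0.13 for Txnrd1. A p that misses the threshold does not show that the groups had like levels.

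The comparison of CKD TRF with Control shares its Control libraries with the first. Of the 10 enzymes, 5 were called, with Sod1, Sod2, Gpx1 and Prdx1 lower and Hmox1 higher in CKD TRF, while 37.5% of tested genes were called, 17.9% lower and 19.5% higher. The enzymes' median log2 difference was -0.31, against 0.01 for all tested genes. In the highest decile by level, which holds every enzyme called lower here, the median was -0.22. In that decile 44.7% of genes were called lower and 11.5% higher. Sod1, Sod2, Gpx1 and Gpx3 lay below the Control libraries with no overlap and Hmox1 above them, against 31.9% of tested genes in either direction, 15.6% below and 16.3% above.

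In CKD TRF against Control, Sod1 was lower by 0.85 on the log2 scale in limma (log2 difference -0.85, SE 0.11, adjusted p = 6.4e-06). Sod2 had -0.30 (SE 0.10, limma adjusted p = 0.0234), Gpx1 -0.44 (SE 0.14, limma adjusted p = 0.0185) and Prdx1 -0.41 (SE 0.14, limma adjusted p = 0.0235). These calls are less firm than that of Sod1, since Prdx1 missed the threshold in 12 of 24 alternatives, Gpx1 in 10, Sod2 in 8 and Sod1 in 1. Single libraries whose absence ended a call were Control 1 and 2 and CKD TRF 1 and 4 for Prdx1 (limma adjusted p 0.0522 to 0.0752), Control 1 and 2 and CKD TRF 4 for Gpx1 (0.0526 to 0.0546), and Control 1 and CKD TRF 1 and 2 for Sod2 (0.0590 to 0.0956). Hmox1 rose by 0.58 (SE 0.17, limma adjusted p = 0.0123) and missed the threshold in 4 alternatives, with limma adjusted p of 0.0512 with quantile normalization, 0.0618 with the adipose covariate, and 0.351 and 0.404 where the limits on adipose markers left 1 CKD TRF library. Gpx3 had -0.29 (SE 0.20, 95% interval -0.71 to 0.13, limma adjusted p = 0.276), although its groups did not overlap. Gpx4 had -0.36 (SE 0.16, limma adjusted p = 0.0790), and without Control 3 it was at -0.53 with an adjusted p of 0.00394. Sod3 had -0.31 (SE 0.14, limma adjusted p = 0.0868). With median centring both were called lower, Gpx4 at -0.44 (limma adjusted p = 0.0322) and Sod3 at -0.39 (limma adjusted p = 0.0332). For Nqo1 the value was 0.09 and for Txnrd1 0.06, with limma adjusted p of 0.637 and 0.668.

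The wider antioxidant pathway was read from lists written with earlier results of these data known, so their directions are not independent evidence. Of the other 63 tested genes on them, 12 rose (19.0%) and 25 fell (39.7%) in CKD against Control, with a median log2 difference of -0.13, beside 23.6% higher and 21.8% lower among all tested genes. By level, 38.2% of the genes in decile 9 and 53.3% in decile 10, the highest, were called lower. The part of level in the counts of these lists was not tested. In CKD TRF against Control 11 rose (17.5%) and 22 fell (34.9%), beside 19.5% higher and 17.9% lower among all tested genes. There 32.5% of the genes in decile 9 and 44.7% in decile 10 were called lower. None of the 63 was called in CKD TRF against CKD. Of the list for superoxide and hydrogen peroxide removal 4 of 5 fell and none rose in CKD, of the thioredoxin and glutaredoxin list 5 of 10 fell and 1 rose, and of the heme breakdown list 2 of 4 fell and 1 rose, counts that include the 10 enzymes. Of the peroxiredoxins 4 of 6 fell in CKD, a count that includes Prdx1, and none rose. Prdx5, a peroxiredoxin of mitochondria and peroxisomes, fell by 62.1% in CKD (SE 0.15 on the log2 scale, limma adjusted p = 5.1e-07). It had 633 ± 132 scaled reads in CKD TRF, 476 ± 92.7 in CKD and 1254 ± 217 in Control (SD, n = 4 each). Of 6 tested glutathione peroxidases 4 fell and 1 rose. Those that fell were Gpx1, Gpx3 and Gpx4, already given among the 10 enzymes, and Gpx6 at -0.60. The 1 that rose was Gpx8, an endoplasmic reticulum enzyme, at 0.45 (SE 0.15, limma adjusted p = 0.0196). Gpx8 did not pass with median centring (0.34, limma adjusted p = 0.0663), without Control 3 (0.33, limma adjusted p = 0.0775) or Control 4 (0.40, limma adjusted p = 0.0529).

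In the list for glutathione synthesis and recycling, 4 of 7 tested genes fell and 2 rose in CKD. Ggt1, the brush-border enzyme that breaks down extracellular glutathione, fell by 0.77 on the log2 scale (SE 0.10, limma adjusted p = 6.0e-06). Gclm, the modifier subunit of the enzyme that starts glutathione synthesis, fell by 0.35 (SE 0.09, limma adjusted p = 0.00471), and with equal sums it was at -0.12 and did not pass. Its catalytic partner Gclc had 0.23 (SE 0.14, limma adjusted p = 0.183) and was called higher with equal sums (0.46, limma adjusted p = 0.0130), quantile normalization (0.50, limma adjusted p = 0.00501) and voom (0.46, limma adjusted p = 0.0141), and without Control 1 (0.35, limma adjusted p = 0.0434). Slc7a11, the cystine transporter, was near the counting limit, at 1.60 ± 0.443 scaled reads in CKD TRF, 0.720 ± 0.292 in CKD and 0.0849 ± 0.170 in Control, where 3 reads are worth at least 0.168. Its rise of 0.66 in CKD (SE 0.25, limma adjusted p = 0.0356) did not pass without any of Control 1, 2 and 4 or CKD 1, 2 and 4 (limma adjusted p 0.0650 to 0.0879). Gsr, the glutathione reductase, fell by 0.39 (SE 0.15, limma adjusted p = 0.0342) but did not pass without Control 1, Control 4, CKD 1 or CKD 2 (limma adjusted p 0.0625 to 0.143). With equal sums and with voom Gsr was at -0.17 and -0.16, and with quantile normalization at -0.24, with limma adjusted p of 0.378, 0.394 and 0.196. Of 8 tested NRF2 regulators 3 rose and 1 fell, with Maff, a small partner protein of NRF2, rising by 0.94 (SE 0.21, limma adjusted p = 0.00136) and its relative Mafg falling by 0.53 (log2 difference -0.53, SE 0.13, limma adjusted p = 0.00184). Mafg did not pass with equal sums (-0.31, limma adjusted p = 0.0607) or voom (-0.31, limma adjusted p = 0.0623). Of 17 tested genes on the list of other NRF2 targets 4 rose and 3 fell, shares near the 23.6% higher and 21.8% lower of all tested genes. The lists share no gene, so NRF2 targets placed on another list are outside this count. Cbr3, a carbonyl reductase, had 8.52 ± 1.77 scaled reads in CKD TRF, 11.4 ± 2.34 in CKD and 2.57 ± 0.862 in Control, and rose by 1.82 on the log2 scale in CKD (SE 0.22, limma adjusted p = 1.9e-06). Osgin1 fell by 0.81 (SE 0.16, limma adjusted p = 3.2e-04).

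The tested genes with the profile most like each enzyme over the 12 libraries were listed by Pearson r, as a description, since libraries share their group, depth and scaling. For Sod1 they were Calml4 at 0.99, Ndufa13 at 0.99 and Klk1b3 at 0.99. For Gpx3 the leading genes were Atp5g1 and Sucla2, both at 0.96, and for Prdx1 they were Trappc2l at 0.98 and Uqcrh at 0.97. For Hmox1 the leading gene was Aldh18a1 at 0.92, for Nqo1 it was Myl6b at 0.92 and for Txnrd1 it was Sestd1 at 0.89.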

How the data were processed

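Kidney RNA of 12 libraries, 4 each of CKD TRF, CKD and Control, was extracted with Trizol, and 500 ng went into Lexogen QuantSeq libraries, per the labels' protocols. Bowtie2, bedtools and mm10 are named per the submitters' processing notes, without versions or roles. The scaling method and the strand setting are not given in the sources used here. The authors deposited 1 value per gene and library, log2 of scaled reads plus 1 (23282 entries, 23238 symbols). For the 35 symbols with several entries the one with the highest mean was kept. Between 98.3% and 100% of values under 20 scaled reads lay within 0.1 of a whole read, which gave the depth per library; 3 reads were worth 0.168 to 0.306 scaled reads, a limit for counting error only.

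The genes in the upper 60% by mean value were tested with limma 3.58.1 in R 4.3.3 (lmFit, then eBayes with a trend), with 1 mean per group over all 12 libraries, two-sided, and Benjamini-Hochberg adjustment over the 13943 tested genes at a threshold of 0.05. Fold changes are on the log2(scaled reads + 1) scale, which understates changes of low genes. Levels are means of scaled reads ± SD. Scripts were tested on simulated data. The alternatives were other filters, added constants and scalings, voom on the recovered reads, sample weights, the replicate block, an adipose marker covariate, and leaving out libraries. The enzymes and lists were chosen with earlier results of these data known. All 10 enzymes were named, and of the lists the called genes with the largest rise and fall, and partners or regulators of the enzymes. Same-numbered libraries of different groups did not deviate together (r of -0.18 to 0.11, with 1 of 12 pairs above 0.1), so the numbers were not taken as pairs. No pair of libraries within a group agreed within sampling noise.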

Additional observations from a re-analysis of the deposited data

Results flagged for a closer look

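Sod3 in the CKD TRF group had 1 library far from the others. CKD TRF 1 had a log2 value of 7.628 (197 scaled reads), against 8.12 to 8.19 in CKD TRF 2, 3 and 4, and its gap to the nearest was 0.875 of the group's range, above Dixon's critical value for 4 libraries. CKD TRF 1 had 81.4 summed scaled reads of adipose markers, against 0.398, 66.5 and 131 in CKD TRF 2, 3 and 4. The part of these markers in the Sod3 values was not tested. In limma, without CKD TRF 1, Sod3 was at -0.18 in CKD TRF against Control (adjusted p = 0.322), against -0.31 with it (adjusted p = 0.0868), and neither passed. Of 30 groups of 4 values examined this was the only one, and chance marks about 1 in 20.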

How the results depend on the processing

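Counts are by limma. The number of enzymes called in CKD against Control, 8 as deposited, was 5 with equal sums, with voom, with the adipose covariate and without the diseased libraries over 50 scaled reads of adipose markers (the last chosen after seeing the data, where 4037 tested genes were called), the adipose settings leaving 5 lower and none higher, and 2 with quantile normalization. Leaving out 1 library gave 7 to 8 enzymes and 5388 to 6311 tested genes. In CKD TRF against Control, 5 as deposited, it was 7 with median centring (1 higher, 6 lower), 3 with all genes above 0 tested, with voom and with sample weights, 2 with equal sums and with the covariate, 1 with quantile normalization and 1 without the libraries over 50, and 0 at the planned limit of 3 times the Control adipose level. Both of these left CKD TRF 2 alone in its group, assumed to vary like the others, also where CKD TRF is set against CKD. Tested genes called there were 1478 and 796 under these 2 limits, and leaving out 1 library gave 2 to 6 enzymes and 4396 to 5150 genes. That planned limit left no CKD library and gave no value for the other comparisons. In CKD TRF against CKD, 1 gene was called with all genes above 0 tested, and 0 to 1 on leaving out 1 library. With the replicate block, 6131, 0 and 5033 tested genes were called (CKD with Control, TRF with CKD, TRF with Control), no call of the 10 enzymes changed (8, 0 and 5), and Slc7a11 lost its call (adjusted p = 0.0540). Signs reversed only for values that did not pass: in CKD against Control, Nqo1 (equal sums 0.19, voom 0.19, sample weights 0.030, leave-one-out -0.095 to 0.039), Cat (quantile 0.11) and Keap1 (equal sums 0.14, quantile 0.015, voom 0.14); in CKD TRF against CKD, Gpx1 (equal sums -0.035, quantile -0.092, voom -0.035), Hmox1 (equal sums -0.031, voom -0.045, without the libraries over 50 -0.11, leave-one-out -0.052 to 0.14) and Txnrd1 (without the libraries over 50 0.0185); in CKD TRF against Control, Nqo1 (leave-one-out -0.027 to 0.19) and Txnrd1 (median centring -0.0225). Of the enzymes' 230, 230 and 240 values under alternatives in the 3 comparisons, 194, 219 and 200 kept direction and side of the threshold. The causes were not tested. Depth limits Slc7a11, listed at 0.0849 scaled reads on average in Control, and among the 10 enzymes Hmox1 had the fewest reads, 84 to 137 in Control libraries.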
